A study of Sus scrofa with 6 samples.

Results

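The genes described here are 10 tied to the secretory products of enteroendocrine cells, out of 20648 genes counted: the granins CHGA, CHGB, SCG2, SCG3 and SCG5, the prohormone processing genes PCSK1, PCSK1N and CPE, TPH1 of serotonin synthesis, and REG4. The rule that names them uses no measured value, though they were chosen with earlier results of these data known. Their levels were read in enteroendocrine cells, taken as cells with at least 50 UMIs of NTS, PYY, GCG, SST, CCK and GIP together and at least 5 UMIs of CHGA and CHGB together, and in other epithelial cells with at least 5 UMIs of EPCAM, KRT8 and VIL1. This selection found 220 peptide enteroendocrine cells and 4318 other epithelial cells among 76099 cells.

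The cells came from scraped ileal mucosa of male large white piglets fed maternal milk, taken apart with EDTA and TrypLE on days 0, 1, 3, 7, 14 and 21 of age. With 5 piglets but 1 library per age, ages cannot be tested against each other and age cannot be told apart from library. The sample labels give the ileum, while the description of the whole series names the cecum. As far as the labels tell, the groups differ in age alone.

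Enteroendocrine cells are scattered hormone-secreting cells of the gut epithelium. Their hormones are made as prohormones, sorted with granins into dense-core granules, cut by prohormone convertases and trimmed by carboxypeptidases before release. Enterochromaffin cells, a further kind of enteroendocrine cell, make serotonin from tryptophan, and the enzyme encoded by TPH1 takes the first step. REG4 encodes a secreted lectin found in enteroendocrine and goblet cells.

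The genes lie apart on the Sscrofa11.1 assembly, on which each position is that of the whole annotated gene. SCG3 is at chr1:120045302-120090035 and SCG5 at chr1:136525920-136590021. TPH1 is at chr2:41075623-41109005 and PCSK1 at chr2:103004794-103050707. REG4 is at chr4:101337295-101354550, CHGA at chr7:114345542-114357799 and CPE at chr8:43568744-43695475. SCG2 is at chr15:125420773-125426303, CHGB at chr17:14747282-14761995 and PCSK1N at chrX:42947688-42952222. All are annotated as protein coding.

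Median depth was 3693 to 4560 UMIs per cell over the 6 libraries. The libraries shared 31 to 68 cell barcodes per pair. Peptide enteroendocrine cells numbered 194, 16, 5 and 5 in the libraries of days 0, 1, 3 and 7. None were found on days 14 and 21, where the limit that a count of 0 allows, taken as 3 cells of the total, was 0.0188% and 0.0217% of cells. Other epithelial cells also became few, with 2831, 1099, 98, 253, 36 and 1 cells from the first library to the last. Epithelial cells of every kind were thus scarce in the later libraries, where fewer cells in the tissue and fewer cells recovered cannot be told apart.

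The day 0 cells fell by their dominant hormone into 108 NTS, 54 SST, 21 PYY, 7 GCG, 3 GIP and 1 CCK cell. Among cells with at least 5 chromogranin UMIs, none had 50 to 59 peptide UMIs and 2 had 40 to 49. At the chromogranin limit, 23 cells inside had 5 UMIs and 27 cells outside had 4. Of the 15 markers of the enteroendocrine list 8 define the class. The 7 others, NEUROD1, INSM1, PAX6, ISL1, RFX6, SCGN and FEV, were each detected in it on day 0, FEV with 6 UMIs and NEUROD1 at 2.20 UMIs per 10000, against 0.00690 in epithelial cells with neither many peptide nor many chromogranin UMIs. Of the 194 cells, 3 barcodes picked out after their values were seen held 160665 to 177496 UMIs each with peptides under 1% of UMIs, and together 27.3% of all UMIs of the class. Without these barcodes the day 0 level of the class was 24.0 for CHGA, 3.26 for CHGB, 8.49 for SCG2, 1.82 for SCG3 and 1.22 for SCG5. It was 1.42 for PCSK1, 1.80 for PCSK1N, 7.59 for CPE, 0.177 for TPH1 and 3.65 for REG4. Every other day 0 value of the class includes them unless stated. Levels are sums over a class, so cells with many UMIs weigh most, and taking the mean over cells instead moved 36 of 60 levels by over 1.5 times.

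Of the day 0 cells past the peptide threshold, 194 also passed the chromogranin threshold and 182 did not. CHGA, the main soluble granule protein of endocrine cells, stood at 17.7 UMIs per 10000 in peptide enteroendocrine cells on day 0 (95% interval 17.1 to 18.3, 24.0 without the 3 large barcodes), yet these cells held only 8.90% of the 43629 CHGA UMIs of all 6 libraries. A class of cells with at least 5 chromogranin UMIs and at least 3 TPH1 UMIs, called TPH1 cells below, numbered 335, 69, 26 and 5 at these 4 ages. It was absent on days 14 and 21. Of these 435 cells, 6 also passed the peptide threshold. The 429 others held 71.2% of CHGA, 74.8% of CHGB, 69.7% of PCSK1 and 87.3% of TPH1 UMIs, although the rule with 50 peptide UMIs counts the epithelial ones among them as other epithelial cells. The rule of the class uses CHGA, CHGB and TPH1, so of these shares only that of PCSK1 lies outside it. A further 227 cells had at least 5 chromogranin UMIs with under 50 peptide and under 3 TPH1 UMIs. They held 17.9% of CHGA and 20.2% of CHGB UMIs, and 74.9% of those of day 0 had a TPH1 UMI. The median TPH1 cell of day 0 had 83 chromogranin UMIs and 1 peptide UMI, while the median peptide enteroendocrine cell had 12 and 954.

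**Figure D1:**
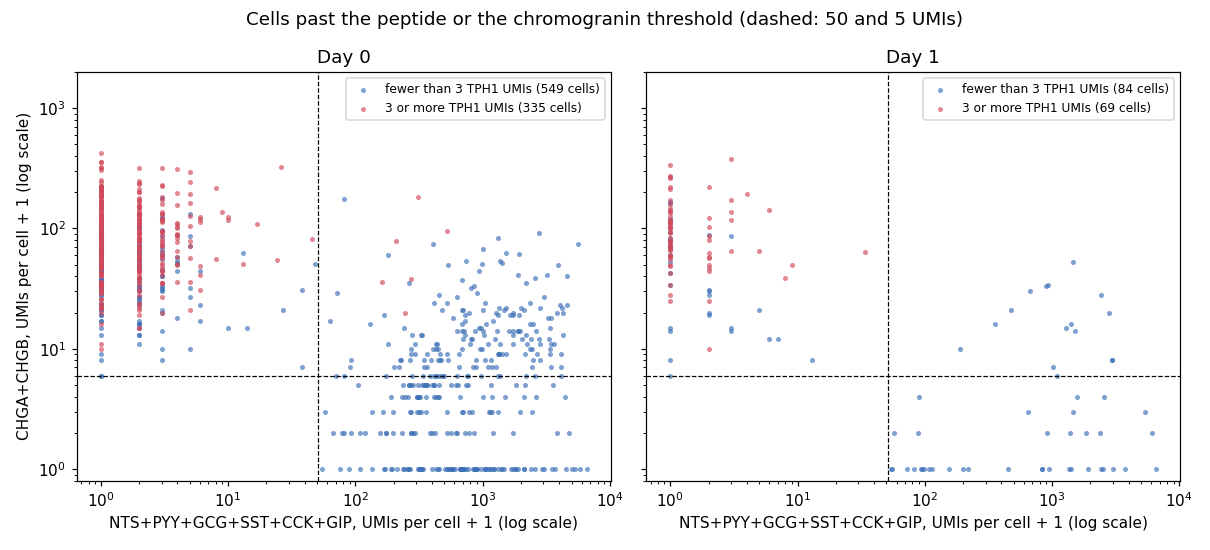
Each point is a cell of day 0 (left) or day 1 (right) that passed the peptide or the chromogranin threshold, with UMIs per cell of the 6 peptide hormones on the x axis and of CHGA plus CHGB on the y axis, both as UMIs plus 1 on a log scale. Red points have 3 or more TPH1 UMIs and lie at the upper left, with few peptide UMIs and many chromogranin UMIs, while the cells to the right of the dashed line at 50 peptide UMIs are mostly blue. A row of blue points to the lower right has peptides with fewer than 5 chromogranin UMIs.

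The selection used CHGA and CHGB, so their levels are a description. In TPH1 cells CHGA stood at 81.0 (80.0 to 82.1) on day 0, then 63.7, 108.8 and 41.2 at the 3 later ages. In peptide enteroendocrine cells it stood at 17.7, 23.1, 78.5 and 22.2 on the same days, below the TPH1 cells in each of the 4 libraries. CHGB, the other chromogranin of these granules, showed a wider gap. It stood at 35.9, 19.4, 32.8 and 31.8 in TPH1 cells and at 2.39, 1.99, 9.23 and 0.284 in peptide enteroendocrine cells. Every peptide enteroendocrine cell of day 0 had a CHGA UMI, but 97 of the 194 had one of CHGB, against 98.8% of TPH1 cells. In the remaining epithelial cells, those with under 5 chromogranin and under 50 peptide UMIs, CHGA was 0.0299 and CHGB 0.0135 on day 0. Barcodes with 1 to 100 UMIs, which carry RNA from outside cells, held CHGA at 4.23, 0.532, 0.254 and 0.0514 on days 0, 1, 3 and 7.

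A further set of cells passed the peptide threshold with under 5 chromogranin UMIs. It held 182, 37, 33, 23 and 3 cells on days 0, 1, 3, 7 and 14. The median such cell of day 0 had 537.5 peptide UMIs and 1 chromogranin UMI. These cells still carried other granule genes on day 0: SCG2 at 8.75, CPE at 6.34, PCSK1N at 1.40 and SCG3 at 1.31, where the peptide enteroendocrine cells had 6.29, 5.69, 1.34 and 1.32. Without the 3 large barcodes the peptide enteroendocrine cells had 8.49, 7.59, 1.80 and 1.82. PCSK1 and SCG5 made up 114 and 57 of the 1234136 UMIs of the chromogranin-poor cells. In the peptide enteroendocrine cells, large barcodes included, they made up 201 and 173 of 1865521. CHGA was 1.78 in the chromogranin-poor cells, which the rule fixes. NEUROD1 and INSM1, transcription factors of the enteroendocrine lineage, stood at 1.84 and 1.04 in them. Day 3 was an exception. Of its 33 such cells 32 were NTS-dominant, with a median of 74 peptide UMIs, and none of the 32 had 5 epithelial marker UMIs. No SCG2, CHGB, PCSK1N or TPH1 UMI was found in the 33 cells, for which the upper Poisson limit is a level of 0.113, and CPE was at 0.0305.

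**Figure D2:**
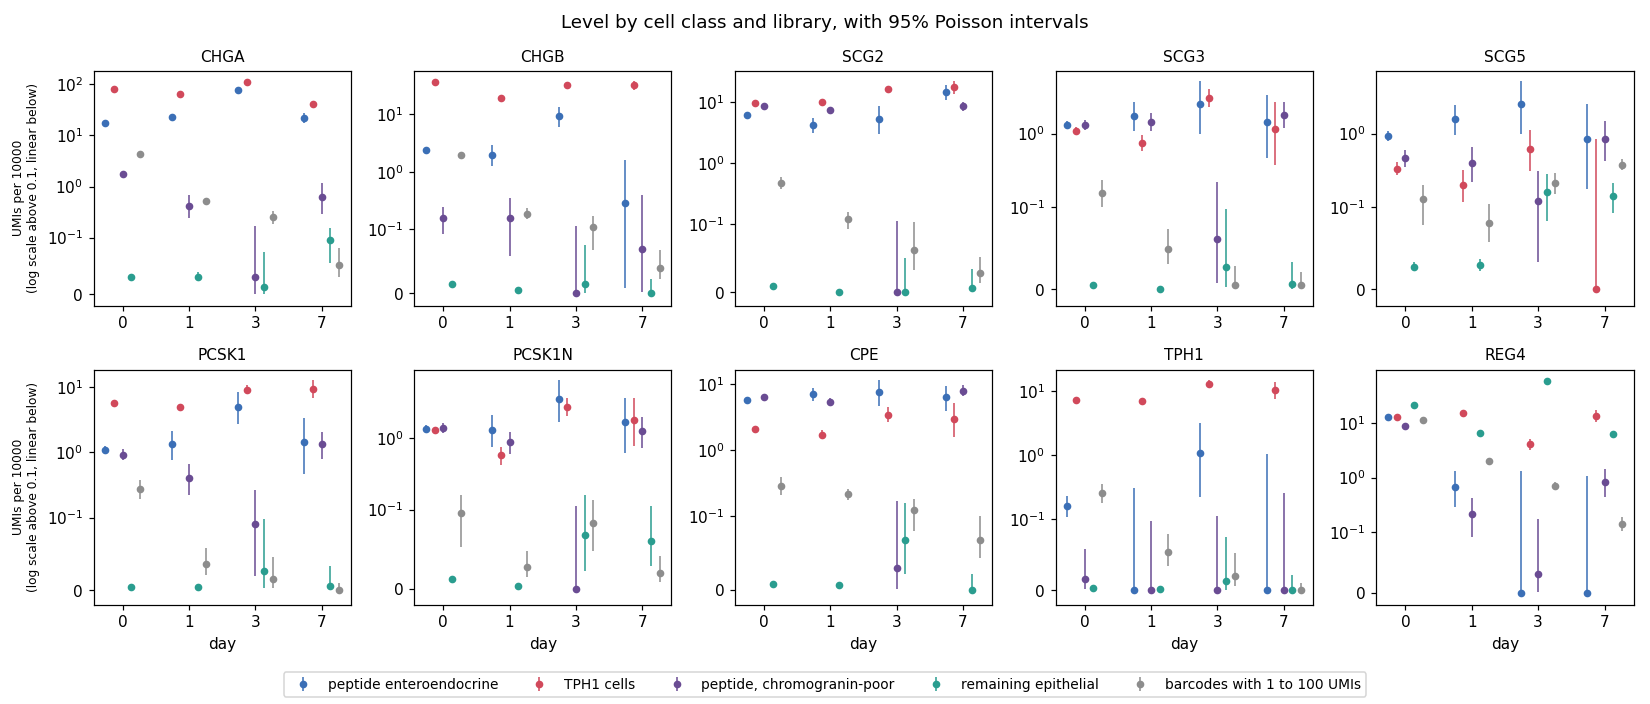
Each panel gives 1 gene as UMIs per 10000, with the libraries of days 0, 1, 3 and 7 on the x axis, points coloured by cell class and bars for 95% Poisson intervals. The y axis is logarithmic above 0.1 and linear below. Granin and processing genes lie above the remaining epithelial cells in most points of the peptide enteroendocrine and TPH1 cells, except that SCG5 is at 0 in TPH1 cells on day 7 and CHGB in peptide enteroendocrine cells rests on 1 UMI there. The chromogranin-poor cells of day 3 lie near 0, and REG4 follows neither pattern.

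Among the secretogranins, SCG2, a granule protein and precursor of secretoneurin, was carried by both kinds of endocrine cell. TPH1 cells had 9.83, 10.1, 16.2 and 17.6 UMIs per 10000 on days 0, 1, 3 and 7. Peptide enteroendocrine cells had 6.29, 4.22, 5.33 and 14.5, lower in each library, with intervals that overlap on day 7. The remaining epithelial cells had 0.00894, 0.000488, 0 and 0.00602. On day 0, 96.1% of TPH1 cells and 75.8% of peptide enteroendocrine cells had an SCG2 UMI, against 1.56% of remaining epithelial cells, whose median depth was the higher at 13465.5 UMIs.

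SCG3 encodes a granin that binds cholesterol-rich granule membranes and CHGA. Its level was 1.32, 1.74, 2.48 and 1.42 in peptide enteroendocrine cells on days 0, 1, 3 and 7, and 1.09, 0.743, 3.05 and 1.14 in TPH1 cells. The order of the classes was not the same in each library. SCG5 encodes the 7B2 protein, a chaperone of the convertase PCSK2. It stood at 0.927, 1.57, 2.48 and 0.852 in peptide enteroendocrine cells and at 0.334, 0.203, 0.621 and 0 in TPH1 cells, lower in each of the 4, with overlapping intervals on days 3 and 7. The partner enzyme PCSK2 had 0 UMIs in peptide enteroendocrine cells on day 0 and 1 in TPH1 cells, so the level of this convertase was not distinguishable from 0 here.

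The processing genes divided between the classes. PCSK1, the convertase that cuts many gut prohormones, stood at 5.62, 4.88, 9.09 and 9.38 in TPH1 cells on days 0, 1, 3 and 7. In peptide enteroendocrine cells the values were 1.08, 1.32, 4.97 and 1.42. CPE, the carboxypeptidase that trims the cut ends, showed the opposite order. It stood at 5.69, 6.95, 7.46 and 6.25 in peptide enteroendocrine cells and at 2.10, 1.72, 3.44 and 2.97 in TPH1 cells. The intervals of the classes overlapped on day 3 for PCSK1 and on day 7 for CPE. PCSK1N, which encodes proSAAS, an inhibitor of PCSK1, had 1.34, 1.32, 3.55 and 1.70 in peptide enteroendocrine cells and 1.29, 0.574, 2.77 and 1.83 in TPH1 cells. The classes changed order on day 7, and their intervals overlapped on days 0, 3 and 7. The day 0 value of the peptide cells was 1.80 without the large barcodes.

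TPH1 itself defines the TPH1 cells, where it was 7.10, 6.86, 12.8 and 10.3 on days 0, 1, 3 and 7. As means over cells these levels were 12.97, 13.3, 18.9 and 14.6. In peptide enteroendocrine cells it was 0.161 on day 0 with UMIs in 4.12% of cells, 0 on days 1 and 7, and 1.06 on day 3, where it rests on 3 UMIs. The level of barcodes with 1 to 100 UMIs on day 0 was 0.253, above that of the peptide cells. TPH1 was 0.0162 in the chromogranin-poor peptide cells and 0.00358 in the remaining epithelial cells of the same library.

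Among the epithelial and endocrine classes read, REG4 was highest in epithelial cells with goblet markers on days 0, 1 and 3. The remaining epithelial cells had 21.4, 6.56, 59.0, 6.18 and 0.0340 on days 0, 1, 3, 7 and 14. Among them, cells with at least 5 UMIs of the goblet markers CLCA1, FCGBP and MUC2 had 74.3 on day 0, against 4.32 in those without, and 21.1 against 2.26 on day 1. TPH1 cells had 12.9, 15.6, 4.12 and 13.5 on days 0, 1, 3 and 7. As means over cells these were 7.76, 7.76, 5.24 and 21.6, and the median cell had 2.26, 0, 0.506 and 1.78. A single cell held 795 of the 3751 UMIs of day 0, and another held 603 of the 1383 of day 1. Peptide enteroendocrine cells had 12.7 on day 0, but 3.65 without the 3 large barcodes and 2.07 as the mean over cells. On days 1, 3 and 7 they had 0.662, 0 and 0. The background barcodes of day 0 held REG4 at 11.6, while cells of the T, B, myeloid and plasma lists had 0.540, 0.527, 0.241 and 0.161.

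Within the peptide class of day 0 the dominant hormone went with different member levels, given here as a description since no hormone class reached enough libraries for a test. PYY cells had CHGA at 54.7, against 25.4 in SST and 18.3 in NTS cells, with intervals that do not overlap. CHGB was 14.5 in PYY cells, 2.27 in NTS and 1.81 in SST cells, but 1 of the 21 PYY cells held 119 of the 168 UMIs and the median PYY cell had 2.42. PCSK1 was 5.42 in PYY cells, which overlaps the 5.62 of TPH1 cells, and 0.806 and 1.20 in NTS and SST cells. CPE had the same leader, at 16.3 in PYY, 7.20 in NTS and 4.68 in SST cells.

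SST cells stood apart in SCG2, PCSK1N and SCG5. SCG2 was 1.81 (1.40 to 2.30) in them, against 10.2 in NTS and 9.04 in PYY cells. PCSK1N was 0.466 in them, against 1.95 and 2.75. SCG5 went the other way, at 2.27 (1.81 to 2.82) in SST cells, 0.794 in NTS cells and 0.947 in PYY cells. The chromogranin-poor cells had the same low SCG2 where SST was dominant, at 0.372 in 26 cells, against 11.6 in 110 NTS-dominant and 4.16 in 28 PYY-dominant cells. Of the members, SCG3 was alike over the classes: 1.83 in NTS, 1.64 in PYY and 1.62 in SST cells, with overlapping intervals. On day 1 CHGA stood at 31.4 in 7 SST cells, 31.1 in 3 PYY cells and 11.7 in 4 NTS cells. The 7 GCG cells of day 0 include large barcodes, and CHGA there was 2.54 with them and 53.5 without.

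**Figure D3:**
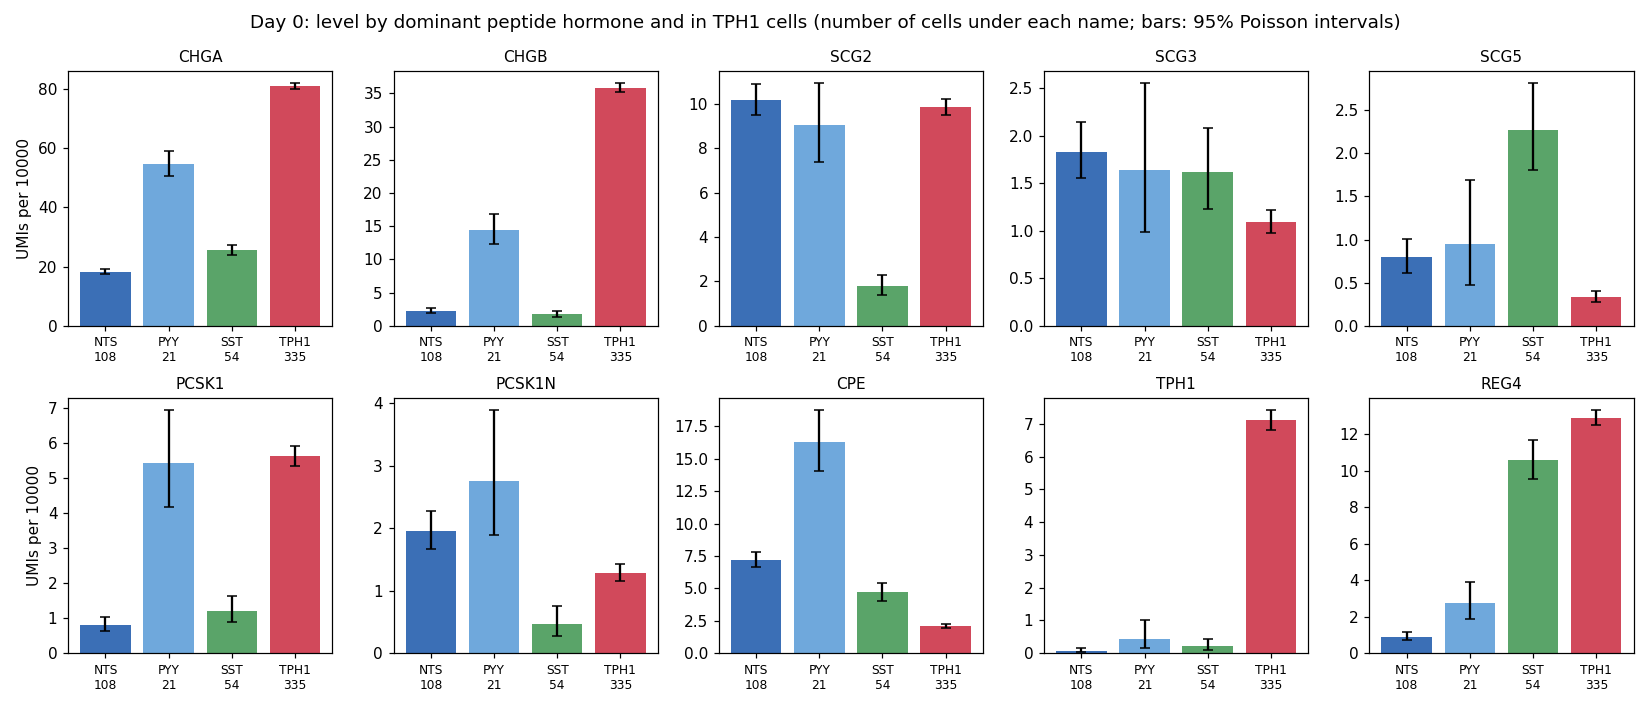
Bars give UMIs per 10000 on day 0 (y axis, from 0) in NTS-, PYY- and SST-dominant cells and in TPH1 cells (x axis, with the number of cells), with 95% Poisson intervals. PYY cells lead the peptide classes in CHGA, PCSK1 and CPE, and in CHGB with 119 of 168 UMIs in 1 cell. SST cells have the lowest SCG2 and PCSK1N and the highest SCG5.

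Over single cells of day 0, thinned to 1000 UMIs, pairs of members were weakly related. Pearson correlations of log2(UMIs + 1) over the 45 pairs ran from -0.185 to 0.567 in the 194 peptide enteroendocrine cells, with a median of 0.012, and from -0.08 to 0.514 in the 335 TPH1 cells, with a median of 0.058. The 0.567 belongs to CHGB and TPH1 and rests on 2 cells with both detected. The cells share a library and many thinned counts are 0, so these values are a description. CHGA and CHGB had the highest value in TPH1 cells, at 0.514.

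A test within libraries set the peptide enteroendocrine cells against the other epithelial cells in the 4 libraries with at least 5 cells of both. By edgeR's quasi-likelihood test with Benjamini-Hochberg adjustment, 4.70% of 10616 genes were called higher and 6.10% lower at 0.05. Of the 8 members tested, 6 rose and 2 fell, each in the same direction in 4 of 4 libraries, beside a median log2 fold change of 2.72 over the 8 and -0.16 over all genes tested. CPE rose by 3.86 ± 0.41 on the log2 scale (SE, adjusted p = 2.416e-18) and SCG5 by 3.63 ± 0.41 (adjusted p = 1.215e-16). The other 4 rose as well, SCG3 by 3.19, PCSK1N by 3.13, SCG2 by 2.32 and PCSK1 by 1.45 (adjusted p = 0.0009638). REG4 fell by 3.61 ± 0.54 on the log2 scale (adjusted p = 2.041e-09). TPH1 fell by 1.94 (adjusted p = 0.001545). The other epithelial cells of this test hold most TPH1 cells. They also hold 146 chromogranin-poor peptide cells and 193 cells past the chromogranin threshold with fewer peptide and TPH1 UMIs. The sizes depend on all of these cells. Against the remaining epithelial cells instead, the log2 change was 10.33 for SCG2, 9.15 for CPE, 8.38 for SCG3, 7.70 for PCSK1, 6.45 for PCSK1N, 4.48 for SCG5 and -3.75 for REG4, each still called, beside 5.57% of 10035 genes higher and 7.22% lower. All of these but SCG5 and REG4, and TPH1 as well, passed the count filter through the peptide class alone, with no library of remaining epithelial cells above its cutoff, so they had to differ and these sizes are a description. TPH1 was then higher by 5.11 (adjusted p = 5.608e-07), although 28 of its 30 UMIs in the peptide class of day 0 lay in the 6 cells that are also TPH1 cells, and days 1 and 7 had none. Days 3 and 7 enter with 5 enteroendocrine cells each and animals within a library are not separated. The p-values rest on a spread between 4 libraries of different age that the fit pools over genes, so each gene's own spread weighs little. Without the library as block 2 members were called, CPE and SCG5, both higher, beside 72 higher and 6 lower of 9162 genes. PCSK1 missed the threshold without day 1 (adjusted p = 0.2685) and without mixed or very large cells (adjusted p = 0.09417). The fall of TPH1 missed it without day 0 (adjusted p = 0.0845) and with at least 20 peptide UMIs (adjusted p = 0.7018).

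The contrast of TPH1 cells with the remaining epithelial cells held the same 4 libraries. There 7.18% of 10546 genes were called higher and 8.28% lower. Of 7 members tested 6 were called higher and none lower, but 5 of the 6, all except SCG5, passed the count filter through the TPH1 cells alone and had to differ, so their count and sizes are a description. The fitted log2 change was 9.66 ± 0.38 for PCSK1 (adjusted p = 2.103e-08), 7.48 for CPE, 7.72 for SCG3, 6.04 for PCSK1N and 10.96 for SCG2, all higher in 4 of 4 libraries. The epithelial side of these genes rests on few UMIs, from 0 to 47 per library, so the sizes depend on the prior count of the fit. SCG5 rose by 2.44 (adjusted p = 0.003034) in 3 of 4 libraries and missed the threshold without day 0 (adjusted p = 0.1542), day 1 (adjusted p = 0.07985) or the library block (adjusted p = 0.2111). REG4 had a log2 change of -0.74 ± 0.70 (adjusted p = 0.5764), lower in 2 of 4 libraries, and passed without mixed or very large cells (-1.45, adjusted p = 0.007672) and without a filter on low counts (-0.79, adjusted p = 0.02815).

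TPH1 cells and TPH1-negative peptide enteroendocrine cells could be set against each other in 3 libraries, days 0, 1 and 7. In this contrast 1.39% of 7552 genes were called higher in TPH1 cells and 1.56% lower. PCSK1 was higher by 2.06 ± 0.47 (adjusted p = 0.0007004) and REG4 by 2.70 ± 0.62 (adjusted p = 0.0006436) on the log2 scale. SCG5 was lower, with a log2 change of -2.36 ± 0.44 (adjusted p = 7.95e-06), as was CPE, with -1.83 ± 0.46 (adjusted p = 0.003417). The 3 members left, SCG3 at -0.90 ± 0.40, SCG2 at 0.47 ± 0.48 and PCSK1N at -0.68 ± 0.40, did not pass (adjusted p = 0.4236, 0.9988 and 0.8651). The count for the 7 tested was 2 higher and 2 lower, with a median log2 change of -0.68 beside 0.06 over all genes. The p-values rest on a spread between 3 libraries that the fit pools over genes, so each gene's own spread weighs little. Day 7 entered with 5 cells of each class, where SCG5 had 3 UMIs in the peptide cells and 0 in the TPH1 cells. No member passed without day 1, beside 50 higher and 53 lower of 8250 genes. None of the 6 still tested passed without day 0 (SCG5 fell below the count filter), beside 0 higher and 2 lower of 1138 genes. Fits without a day held 2 libraries each, fewer than the 3 the design asked. REG4 also missed the threshold without day 7 (adjusted p = 0.6286) and without the library block (adjusted p = 0.9996).

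**Figure D4:**
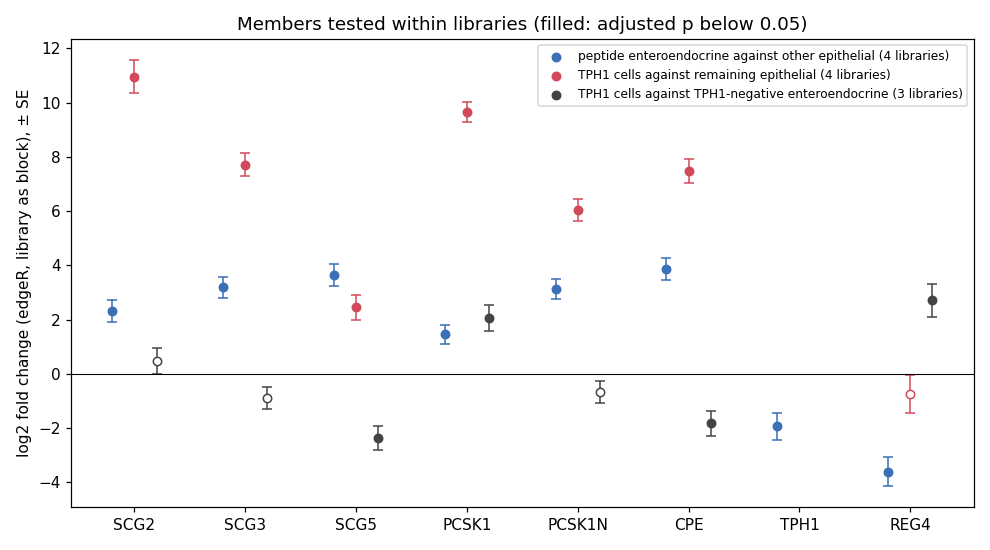
Points give the fitted log2 fold change (y axis) of each member that entered a test (x axis) in the 3 contrasts of cell classes within libraries, with bars for SE. Filled points passed an adjusted p of 0.05 and open points did not, and of those against the remaining epithelial cells all but SCG5 and REG4 passed the count filter through the TPH1 cells alone. PCSK1 lies above 0 and CPE and SCG5 below 0 for TPH1 against TPH1-negative enteroendocrine cells.

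Of 26 further granule and exocytosis genes, 21 entered the test of peptide enteroendocrine against other epithelial cells. Of these 12 rose, none fell and 9 did not pass, beside 4.70% and 6.10% of all genes. Of the 12, 3 passed the count filter through the peptide class alone, and PAM, QPCT and SNAP25 were higher in 2 of 4 libraries. CADPS, RAB3C and SCGN had 1 library of other epithelial cells above the cutoff, fewer than the filter asks. They entered only with the peptide class, so their calls are a description. The fitted log2 change was 5.18 for SCGN, the calcium sensor secretagogin, and 3.99 for CADPS, a priming factor of dense-core granules. VGF, a granin-like precursor, rose by 3.60. The count called was 6 of 16 without day 0, 6 of 19 without day 1 and 4 of 18 without the library block. Over all genes the higher calls of these refits were 162 of 7713, 271 of 10080 and 72 of 9162. Against the remaining epithelial cells 13 of 19 were called higher and none lower, beside 5.57% and 7.22% of all genes. Of the 13, 11 passed the filter through the peptide class alone and are a description, SCGN, CADPS and VGF among them. For TPH1 against the remaining epithelial cells 14 of 19 were called higher and none lower, beside 7.18% and 8.28% of all genes. Of the 14, 10 passed the filter through the TPH1 cells alone and are given as a description, SNAP25 of the fusion machinery among them. Between the classes 3 of 19 were higher in TPH1 cells (SLC18A1, SYT13 and RAB3B) and 3 lower (SCGN, CADPS and QPCT), beside 1.39% and 1.56% of all genes. Of these 6 calls, SYT13 of the higher and SCGN and QPCT of the lower passed the filter through the class where they were high alone. These 3 had to differ and are given as a description. SLC18A1 and RAB3B had 1 library of TPH1-negative cells above the cutoff, fewer than the filter asks. They too entered only with the TPH1 cells and are a description. Without day 0 only 2 genes of the list passed the count filter and neither was called by edgeR. Without day 1, and likewise without the library block, SLC18A1 and SCGN were called. DESeq2 called SCGN alone. SCGN was the most divided of these, with 239 UMIs in 194 peptide enteroendocrine cells and 2 in 335 TPH1 cells on day 0.

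The serotonin list of 17 genes was read in the same way. Against the remaining epithelial cells 6 of 11 tested genes were called higher in TPH1 cells and 1 lower, beside 7.18% and 8.28% of all genes. Without a filter on low counts 7 of 16 were higher, beside 1147 of 17080 genes. Of the 6, SLC18A1, TAC1, LMX1A and FEV passed the filter through the TPH1 cells alone, so their values are a description. SLC18A1, the transporter that loads serotonin into granules, had 465, 87, 40 and 9 UMIs in TPH1 cells on days 0, 1, 3 and 7 and 13, 6, 1 and 0 in the remaining epithelial cells. DDC, which makes serotonin from the product of TPH1, rose by 2.42 (adjusted p = 0.0003672), and stood at 3.46 in TPH1 cells and 0.789 in the remaining epithelial cells. GCH1, which makes the cofactor of TPH1, rose by 1.94 (adjusted p = 0.001072). FEV, a transcription factor of serotonergic cells, had 38, 11, 3 and 0 UMIs in TPH1 cells and none in the remaining epithelial cells. LMX1A, another such factor, had 478, 118, 39 and 14 in TPH1 cells and 25, 11, 0 and 1 in the remaining epithelial cells. TAC1, the precursor of substance P, had 301, 126, 33 and 69 against 106, 2, 0 and 0. MAOA, which breaks serotonin down, was the gene that fell, with a log2 change of -1.48, and was not called without day 0, without day 1 or without the library block. FEV was not called without day 0, without the block or by DESeq2. Against TPH1-negative peptide cells 5 of 9 were higher (LMX1A, TAC1, DDC, SLC18A1 and MAOB), beside 1.39% of all genes, and none lower. LMX1A and TAC1 passed the filter through the TPH1 cells alone, so they had to differ and their calls are a description. SLC18A1 and MAOB had 1 library of TPH1-negative cells above the cutoff, fewer than the filter asks. They too entered only with the TPH1 cells, so their calls are a description as well. Without day 0 none of the 5 genes still tested was called by edgeR, MAOB was not called without day 1, without day 7 or without the block, and DESeq2 called LMX1A, TAC1 and DDC. Peptide enteroendocrine against other epithelial cells, which hold most TPH1 cells, gave 2 higher (PIEZO2 and GCH1) and 2 lower (TAC1 and MAOB) of 11, beside 4.70% and 6.10% of all genes, where PIEZO2 and TAC1 each passed the filter through the class where it was high alone. The day 0 level of TAC1 was 0.0268 in peptide cells, 0.0271 in the remaining epithelial cells and 1.03 in TPH1 cells. Against the remaining epithelial cells 4 of 10 were higher (GCH1, LMX1A, PIEZO2 and SLC18A1) and none lower, beside 5.57% and 7.22% of all genes, and 3 of the 4 passed the filter through the peptide class alone. Neither lower call held without day 0, without day 1, without the block or by DESeq2. Of the higher ones GCH1 alone was called without day 0, PIEZO2 alone without day 1 and neither without the block. TPH2 and SLC18A2 had no UMI in TPH1 cells on days 0 and 1.

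Outside the epithelium SCG2, SCG3, SCG5, PCSK1N and CPE were found in cells of other marker lists. SCG5 had most of its UMIs there: 80.3% of 16865 lay in the B list, which holds 49066 of the 76099 cells and is defined by MS4A1, CD79A and CD79B. Its level in them was 0.219, 0.320, 0.298, 0.510, 0.646 and 0.612 in the order of age, with UMIs in 7.74% of cells on day 0 and 29.5% on day 14. It was 0.467, 0.370, 0.199, 0.481, 0.562 and 0.469 in the T list and 0.281, 0.109, 0.340, 0.857, 0.999 and 0.761 in the plasma list. The background barcodes moved likewise, at 0.130 on day 0 and 0.566 on day 14, and their part in these values was not tested. In the myeloid list of day 0 SCG5 was at 0 in 831034 UMIs. CPE was carried by stromal cells, at 1.76, 2.49 and 3.71 on days 0, 1 and 3, with UMIs in 39.8%, 56.4% and 64.0% of cells. In B list cells CPE was 0.0316 on day 0 and 0.206 on day 21, beside background levels of 0.288 and 0.189. The B list held 47.02%, 92.98% and 93.6% of the CPE UMIs of days 7, 14 and 21, with 76.2%, 87.08% and 88.55% of the cells.

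SCG3 was found in few but rich cells of the endothelial list. Its level was 2.83 on day 0 and 1.08 on day 1, from 31 of 257 and 22 of 307 cells with a UMI, the richest holding 70 and 60 UMIs. None of the 31 endothelial list cells of day 3 had one. The myeloid list held 67 of the 568 SCG3 UMIs of day 1 in 717 cells, and 0 on day 0 in 107 cells. Neural and glial list cells carried SCG2, SCG3, SCG5 and PCSK1N on day 3, at 18.7, 3.98, 3.56 and 11.9 in 32 cells. SCG2 was found in 9 of these cells and PCSK1N in 24. CHGB was at 1.82 (1.32 to 2.45) with UMIs in 8 of them, and CHGA at 0.953 with UMIs in 14. Of the 32 cells 28 lay below the peptide and chromogranin thresholds, and these held 6 of the 44 CHGB, 12 of the 23 CHGA, 63 of the 96 SCG3, 44 of the 86 SCG5, 167 of the 288 PCSK1N and all 451 SCG2 UMIs. On day 0 the same list had SCG2 at 0.400 and PCSK1N at 1.12 in 37 cells. Its 33 cells of day 1 below both thresholds held 75 SCG2, 94 PCSK1N, 19 SCG3 and 18 SCG5 UMIs. A UMI of these members in a cell of ileal mucosa therefore did not by itself mark an enteroendocrine cell. Over all libraries together, PCSK1 and TPH1 were closer to that by share of UMIs. The 1154 cells past the peptide or the chromogranin threshold held 96.9% of PCSK1 and 96.0% of TPH1 UMIs. They held 91.4% of SCG2, 51.3% of SCG3, 57.8% of PCSK1N, 45.3% of CPE, 8.32% of REG4 and 2.98% of SCG5 UMIs. Day 0 gave 2336 of the 3344 TPH1 UMIs. In later libraries the B list held 11 of 60 TPH1 UMIs on day 7, 18 of 20 on day 14 and 20 of 20 on day 21. The 33 chromogranin-poor peptide cells of day 3, nearly all with fewer epithelial marker UMIs than the epithelial rule asks, are among the 1154.

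**Figure D5:**
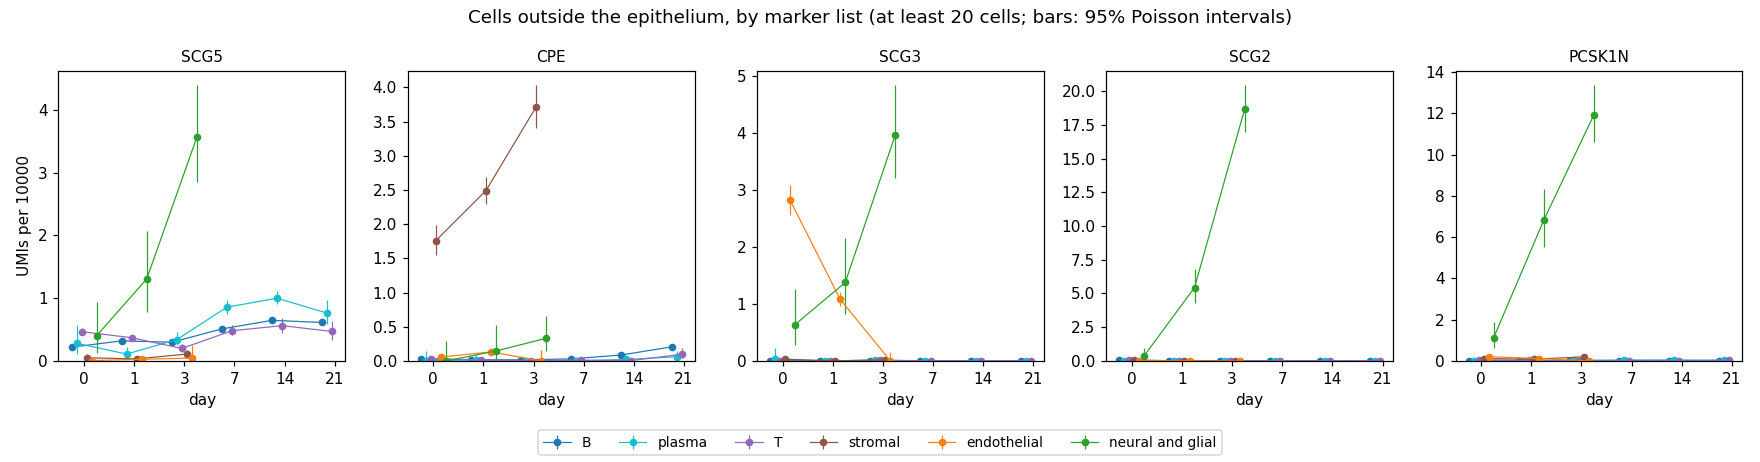
UMIs per 10000 (y axis) of SCG2, SCG3, SCG5, PCSK1N and CPE outside the epithelium, by library (x axis, day) and marker list with at least 20 cells, with 95% Poisson intervals. Lines join libraries of different animals. SCG5 has UMIs in B, plasma and T list cells on every day, where the barcodes with 1 to 100 UMIs held 0.130, 0.0808, 0.213, 0.380, 0.566 and 0.586 in the order of age. CPE has UMIs in stromal and B list cells, SCG3 in endothelial and neural and glial list cells, and SCG2 and PCSK1N in neural and glial cells.

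Likeness was read over 14 sums of a class in a library with at least 10 cells: NTS-, PYY- and SST-dominant cells of day 0, other epithelial cells of 5 libraries and other cells of 6. TPH1 and chromogranin-poor cells have no sum of their own here and lie within the other classes. The genes most alike to each member by Pearson correlation of log2(UMIs per 10000 + 1), among 14660 genes, were partly endocrine genes. NEUROD1 was nearest to SCG2 (0.984). PAX4 (0.981) and NKX2-2 (0.979), transcription factors of endocrine cells, were nearest to PCSK1. KCNG2 (0.992) was nearest to CPE, with VGF (0.99) second. Of the second-ranked genes only NKX2-2 and VGF are named here. CHGB was nearest to SSTR1, a somatostatin receptor (0.975), and SCG3 to PCLO, a scaffold of release sites (0.983). CHGA was nearest to ARHGEF38 (0.985), TPH1 to LRP4 (0.986), PCSK1N to KCNB2 (0.992), REG4 to LOC100512780 (0.974) and SCG5 to HPS4 (0.928). The 14 sums share libraries and depth, and many genes reach such values with so few points.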

How the data were processed

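Scraped ileal mucosa was measured by droplet-based 3′ scRNA-seq in 6 libraries. The authors ran Cell Ranger 3.1.0 (with STAR, per the submitters' processing notes) on susScr11 (Sscrofa11.1) and deposited raw UMI counts of 20648 genes, unfiltered for 6794880 barcodes per library and without normalization. Kept barcodes had at least 1000 UMIs and 500 genes. Total UMIs per library ran from 77391932 to 100348769. No doublet caller was run. As an alternative, cells with 3 or more UMIs of an immune, stromal or endothelial marker list and cells above the 99th percentile of UMIs were left out. All 20648 symbols matched the RefSeq table of the same assembly.

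Levels are UMIs per 10000 summed over the cells of a class in a library, with exact Poisson intervals. Shares of cells have exact Clopper-Pearson intervals and were also computed after thinning each cell to 1000 UMIs. Both kinds are 95% intervals and cover counting error only. Barcodes with 1 to 100 UMIs gave the background level of each library.

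Contrasts of cell classes were fitted with the quasi-likelihood test of edgeR 4.0.16 (R 4.3.3) on UMI counts summed per library and class, with TMM factors, filterByExpr and the library as block, and with Benjamini-Hochberg adjustment over all genes tested. The block pairs classes of the same library. Genes that define the classes were left out of the calls. The fit was tested on simulated data. DESeq2 1.42.0 and other cell filters were alternatives. The design asked for at least 10 cells of both classes in at least 3 libraries. No contrast of the design met this, since only days 0 and 1 held 10 peptide enteroendocrine cells, and no dominant hormone class could be tested. The fits given here used at least 5 cells. That minimum, and the whole contrast of TPH1 cells with the remaining epithelial cells, were chosen after class sizes and values were seen. The genes named are the 10 members, 26 granule and exocytosis genes, 17 serotonin genes, the enteroendocrine markers and, per member, the 3 genes most alike. The members and lists were chosen with earlier results of these data known. Other software was Python 3.11.15 with numpy 2.4.6, pandas 2.3.3, scipy 1.17.1 and matplotlib 3.10.9.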

Additional observations from a re-analysis of the deposited data

How the results depend on the processing

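No contrast could be fitted with at least 10 cells per class as the design asked, except that of TPH1 with the remaining epithelial cells, which was added later and gave 895 genes higher and 843 lower with 10 or with 20 cells. For the other contrasts fewer than 3 libraries were left with 10 or 20 cells, 2000 UMIs and 1000 genes, a mitochondrial share below 25% or 100 peptide UMIs, and for TPH1 against TPH1-negative enteroendocrine cells also without mixed or very large cells or with 10 TPH1 UMIs. No test between ages was possible. Main counts were 499 higher and 648 lower for peptide enteroendocrine against other epithelial cells, 757 and 873 for TPH1 against remaining epithelial cells, and 105 and 118 for TPH1 against TPH1-negative enteroendocrine cells.

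Without the library as block the counts fell to 72 and 6, 264 and 23, and 46 and 59. Leaving out each library in turn gave 162 to 531 higher and 230 to 595 lower, 265 to 911 and 148 to 1105, and 0 to 91 and 2 to 112, with the lowest values without day 0 or day 1. In the edgeR fit that called 0 higher, without day 0 in the third contrast, 110 of 1138 genes had an unadjusted p under 0.05. Without a filter on low counts 869 genes were higher in the first contrast, and 1147 higher and 1394 lower in the second. DESeq2 called 243 lower in the first, and 36 higher and 63 lower in the third. Without mixed or very large cells the second gave 1382 and 1534, and with at least 10 TPH1 UMIs 567 lower. With peptides at least 1% of UMIs the third gave 165 higher.

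Of 321 refitted member changes 294 kept direction and side of the threshold, 22 lost it, 2 passed it and 3 reversed. In the contrast of TPH1 with remaining epithelial cells some refits could not differ. Both peptide UMI minimums left its classes unchanged, and its fits with 10 cells, with 20 cells and without day 7 were the same. TPH1 reversed to 5.01 with the stricter epithelial rule and 5.11 against remaining epithelial cells, and REG4 in TPH1 against remaining epithelial cells to 0.17 without day 3, the upper end of a leave-one-out range from -1.44. Of 500 recomputed levels 375 stayed within their Poisson interval. The settings on the minimum of peptides change the peptide class alone, so they could not move the levels of TPH1 or remaining epithelial cells. The mean over cells, and leaving out mixed or very large cells, each moved 36 of 60 levels by over 1.5 times, and both lessen the weight of cells with many UMIs. Dropping the chromogranin minimum moved 9 of 20 levels by over 1.5 times.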
